A study of Mus musculus with 18 samples.

Results

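The tetraspanin family was followed in mouse aorta after the serum response factor binding site of 1 member, *Tspan2*, had been edited. The members were 31 genes, taken by symbol from a list and all present in both count tables, out of 55453 symbols. Bulk RNA-seq had been run on single aortae from homozygous edited mice and wild-type mice in a pair of separate experiments. In the first, Cas9, a single guide RNA and a repair oligonucleotide changed adjacent bases by homology-directed repair (HDR), and the table held 5 wild-type and 5 *sg/sg* libraries from C57BL/6 mice of 12 weeks, labelled as 3 females and 2 males per genotype. In the second, prime editor 2 (PE2), a nickase joined to a reverse transcriptase, changed a single base, and the table held 4 wild-type and 4 *peg/peg* libraries from FVB/N/B6(Cg)-Tyrc-2J/J mice of 8 weeks, labelled as 3 females and 1 male among wild types and 4 females among mutants. Wild types carried neither edit. The edits were passed through the germline and were thus present in every cell of the mutants, with no Cre or transgene. The founders of both lines were of mixed FVB/NJ and B6(Cg) parentage and had been bred to C57BL/6J. Age, strain label and sequencing depth differ between the experiments and cannot be told apart from the kind of edit. Total counts per library were 17290992 to 24880385 in HDR and 38820265 to 44895615 in PE2.

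Tetraspanins are small membrane proteins that cross the membrane repeatedly and hold a conserved CCG motif in their large extracellular loop. They bind one another and partner proteins such as integrins, immunoglobulin superfamily proteins and proteases, and so organise membrane microdomains. *Cd9* and *Cd81* belong to the branch of the family that holds *Tspan2*, the TspanC8 members escort the protease ADAM10, and *Upk1a* and *Upk1b* are subunits of the uroplakin plaques of urothelium. Serum response factor binds the CArG box, a run of 2 C, 6 A or T and 2 G, and drives contractile genes of smooth muscle, the main cell type of the aortic media.

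The edited sequence is shown because it is the only designed difference between genotypes. The box lies at chr3:102734427-102734436 on the plus strand of GRCm38, 92 bases before the Gencode M21 start of *Tspan2* (chr3:102734529-102801513, plus strand), so outside its exons. That is the outermost Gencode start, and the RefSeq starts used below lie further from the box. It also lies within *Tspan2os*, a noncoding gene on the minus strand (chr3:102720231-102735417), in an intron, since 0 of its annotated exons overlap it. The alleles below cover chr3:102734411-102734460, with the box in capitals.
Wild type: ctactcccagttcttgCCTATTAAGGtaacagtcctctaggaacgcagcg
sg allele: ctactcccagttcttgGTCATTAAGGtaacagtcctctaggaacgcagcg
peg allele: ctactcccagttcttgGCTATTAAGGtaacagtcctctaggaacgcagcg

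Counted from 1 at the 5′ end of the box, the sg allele carries C1G, C2T and T3C and the peg allele carries C1G. Both editors used a spacer that reads the minus strand, given below in full. The line named Extension holds the longest stretch of the prime editing guide, 27 bases, that matches the window above except at 1 base. The capital marks the base that writes the edit. The ends of this stretch come from the match, and its length differs from the summed template and primer site lengths that the paper states.
Spacer: uagaggacuguuaccuuaau
Extension: guucuugGcuauuaagguaacaguccu

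The same letters were searched near the starts of the other members. In the RefSeq promoter windows (GRCm38.p6, 250 bases before to 50 after each start), a CArG box in the strict form named above, which reads the same on both strands, was found in 1.63% of 32851 windows. It was found in 0 of the 39 windows of the 29 members with an entry. The edited box of *Tspan2* lies outside its own 2 windows, the nearest of which begins at chr3:102734520. A box elsewhere is thus not covered by the search. By protein, translated from Gencode M21 coding sequences, all 31 members hold a CCG, and identity to *Tspan2* over the shorter protein had a median of 28.7%. The nearest relatives were *Cd9* with 48.9%, *Cd81* with 44.3% and *Cd151* with 36.2%.

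Some libraries stood apart from their groups, and this touches several members. All 10 smooth muscle markers were present in every group, with summed levels of 18166 to 39451 CPM (a count divided by the library's total after edgeR's TMM scaling, and brought to a common scale) in HDR and 28484 to 69400 in PE2. The library labelled PE2 *peg/peg* replicate 3 held 70.3 CPM of *Upk2*, 112 CPM of *Upk3a* and 175 CPM of *Krt5*, a basal epithelial keratin, where the highest of the other 7 PE2 libraries held 4.04, 6.91 and 7.48. Its *Actg2*, an actin of visceral smooth muscle, stood at 8942 CPM against 161 to 456 in the others, and its *Pecam1*, an endothelial marker, at 186 against 545 to 1270. The summed level of 6 urothelial genes, a list written after the values were seen, was 615 CPM in that library and 4.60 to 29.6 in the other *peg/peg* and wild-type libraries. Marker lists of several other cell types were also apart there. The sum was 1134 CPM for skeletal muscle against 8.02 to 21.5 in the other 7, 532 CPM for cardiac muscle against 43.6 to 155, and 496 CPM for epithelium against 22.6 to 71.9. For mesothelium, a list also written after the values were seen, it was 327 CPM against 1.28 to 26.6. Adipocyte markers summed to 34.4 CPM there against 540.03 to 2508, and endothelial markers to 565 CPM against 1205 to 2930.0, while fibroblast markers summed to 11882 CPM against 5667 to 10640 and Schwann cell markers lay inside the range of the others. In HDR the urothelial sum reached 82.3 CPM in wild-type library 3, 24.0 in *sg/sg* library 2 and 57.2 in *sg/sg* library 4, and was at most 6.68 in the other 7. *Actg2* stood at 1109 CPM in wild-type library 3 against 88.1 to 192 in the other HDR libraries, *sg/sg* libraries 2 and 4 among them. The skeletal muscle sum (127 CPM against 5.91 to 81.4) and the mesothelial sum (41.6 against 0.561 to 10.1) were also highest in that wild-type library. HDR libraries 5 and 6 of both genotypes carried *Ddx3y*, a gene of the Y chromosome, at 178.5 to 234 CPM, and the other 6 held 0 counts. *Xist*, an X-linked RNA, stood at 0.761 to 1.82 CPM in these 4 libraries and at 1120 to 1578 CPM in the other 6. Each genotype thus had 2 libraries with *Ddx3y* and little *Xist* and 3 with the reverse, the numbers labelled male and female. The HDR column names do not give sex. Their running numbers also separate these 4 libraries from the rest, so sex and order cannot be told apart.

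The first comparison asked how far *Tspan2*, a gene of smooth muscle and of oligodendrocytes, fell in each mutant and whether other members changed with it. *Tspan2* fell in both experiments and no other member passed the adjusted threshold in either. In HDR, *Tspan2* stood at 112, 209, 265, 253 and 205 CPM in the wild types and at 20.4, 22.1, 16.0, 29.3 and 36.6 CPM in *sg/sg* aortae. The groups did not overlap, and the highest mutant lay well below the lowest wild type, library 2. The mean fell from 209 ± 60.1 to 24.9 ± 8.12 CPM (SD, n = 5 each), a log2 fold change of -3.07 ± 0.27 (SE, 95% interval -3.67 to -2.47, edgeR quasi-likelihood test, adjusted p = 0.00226), and the level was lower in 5 of 5 mutants.

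In PE2, *Tspan2* stood at 194, 284, 208 and 186 CPM in the wild types and at 25.5, 25.5, 11.9 and 16.9 CPM in *peg/peg* aortae. Here too the groups did not overlap. The mean fell from 218 ± 45.0 to 19.96 ± 6.74 CPM (SD, n = 4 each), a log2 fold change of -3.45 ± 0.29 (SE, 95% interval -4.11 to -2.79, edgeR adjusted p = 0.0292), lower in 4 of 4 mutants. By exact permutation over libraries, two-sided, p was 0.00794 in HDR and 0.0286 in PE2, in each case the smallest value these numbers of libraries allow. The remaining level was 11.9% of wild type in HDR and 9.15% in PE2. The call in PE2 was lost when most single libraries were left out (adjusted p up to 0.224), with log2 fold changes from -3.60 to -3.28 over these fits. It held, with an edgeR adjusted p of 0.00524, without the *peg/peg* library that stands apart, where 0.012% of genes were called, 1 of them a member. Fewer cells that express *Tspan2* and less RNA per cell cannot be told apart in bulk tissue by *Tspan2* counts alone. The smooth muscle marker sum had a median of 26891 CPM in HDR wild types and 26938 in *sg/sg*. In PE2 the medians were 38429 in wild types and 46726 in *peg/peg*. The part of cell number in the fall was not tested here. By in situ hybridization, the paper reports loss of *Tspan2* mRNA in cells labelled for a smooth muscle protein in both lines.

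The edits differ in 2 further bases, and the fall of *Tspan2* did not differ detectably with them. The HDR log2 fold change was higher than that of PE2 by 0.41 ± 0.39 (SE, 95% interval -0.41 to 1.24, edgeR interaction contrast over 18 libraries, adjusted p = 1.00). The interval leaves room for a difference of over 2-fold in the remaining level. Within the HDR libraries without Y-linked counts *Tspan2* was 90.0% lower in mutants, and within those with Y-linked counts 85.6% lower.

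*Tspan2os*, the antisense gene that spans the box, was near the limit of detection. It had 6 counts over the HDR wild types and 1 over the *sg/sg* libraries, and 17 over the PE2 wild types and 3 over the *peg/peg* libraries. The ratio of mutant to wild type was 0.187 (exact 95% interval 0.00406 to 1.54) in HDR and 0.178 (0.0335 to 0.616) in PE2, intervals that cover counting error only. By exact permutation over libraries, two-sided, p was 0.167 in HDR and 0.0571 in PE2. Whether the counting used strand is not stated, so reads of *Tspan2* and *Tspan2os* may not be separable.

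**Figure D1:**
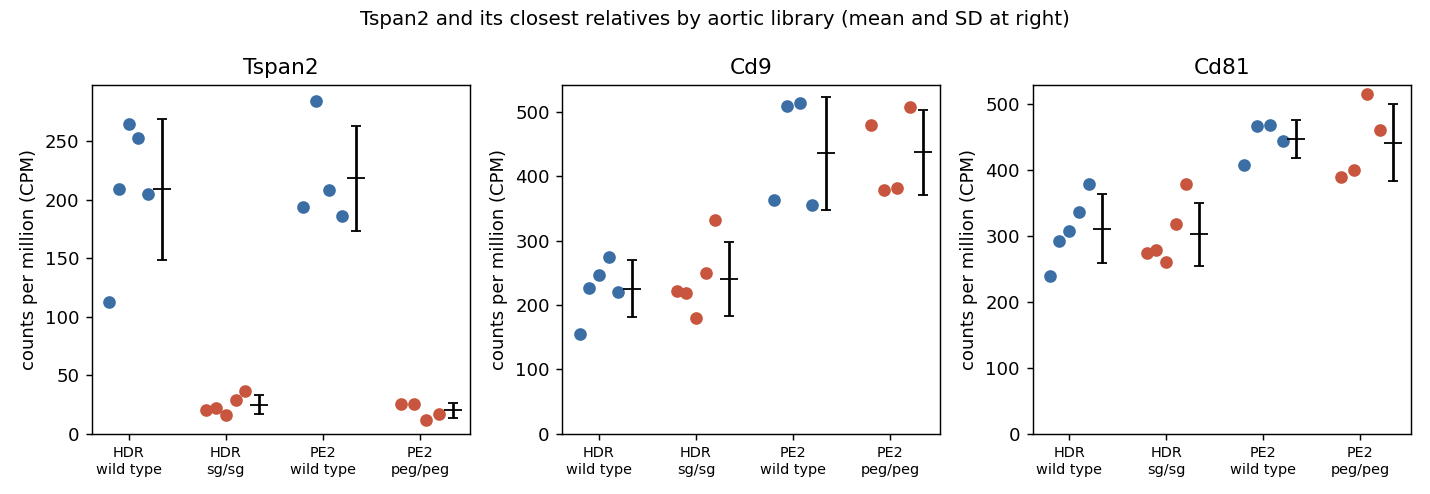
CPM of *Tspan2*, *Cd9* and *Cd81* in each aortic library (points) of the HDR and PE2 experiments, with the mean and SD of each group at its right. *Tspan2* lies between 112 and 284 CPM in all wild types and at or below 36.6 CPM in all mutants, while *Cd9* and *Cd81* overlap between genotypes.

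Over the whole family, 26 members passed the filter on low counts in HDR and 28 in PE2. Of these, 1 was called in each experiment at an adjusted p under 0.05, *Tspan2*, where 0.00609% of all genes tested were called in HDR and 0.0061% in PE2, that is 1 gene each. At an unadjusted p under 0.05, *Tspan2* was again the 1 member in HDR (background 1.98% of genes). In PE2 there were 3 (background 4.3%), *Tspan2* lower (background 1.27%) and *Tspan8* and *Upk1b* higher (3.04%). Beside *Tspan2*, 0 members had groups that did not overlap in either experiment, where 0.122% of genes in HDR and 1.43% in PE2 were higher in every mutant and 0.195% and 1.1% lower. DESeq2 called 4 genes in HDR (0.00933%) and 33 in PE2 (0.114%), and 1 member in each, *Tspan2*. The 25 other members tested in HDR had log2 fold changes with a median of 0.00 between -0.62 and 0.79, 13 above 0 and 12 below. The 27 in PE2 had a median of 0.00 between -0.55 and 4.22, 14 above 0 and 13 below. Over all genes tested the median was 0.00 in HDR and 0.01 in PE2.

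**Figure D2:**
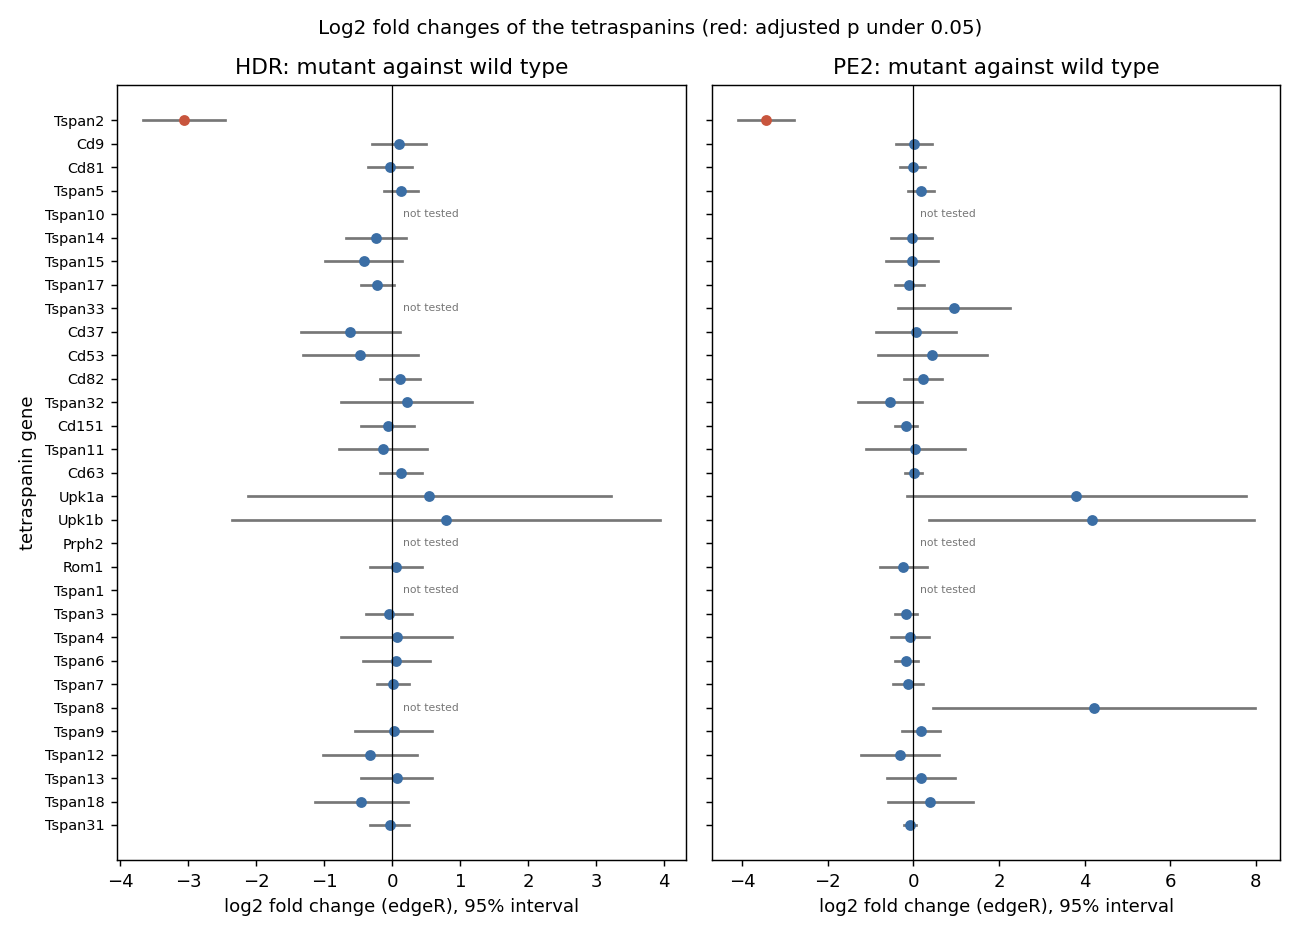
Log2 fold change of each tetraspanin (edgeR, mutant against wild type) with its 95% interval in HDR (left) and PE2 (right), on axes of different range. *Tspan2* is at -3.07 and -3.45 (red, adjusted p under 0.05), most others lie near 0, and the intervals are widest for *Upk1a* and *Upk1b* and, in PE2, *Tspan8*.

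Among wild types, *Tspan2* was one of the 5 most abundant members per length. Per kb of exon, HDR aorta held 110.1 CPM per kb of *Cd9*, 108 of *Cd81*, 76.1 of *Cd151*, 43.9 of *Tspan2* and 24.6 of *Cd63*. In PE2 aorta the same 5 led, with 213 CPM per kb of *Cd9*, 155 of *Cd81*, 110.2 of *Cd151*, 66.7 of *Cd63* and 45.9 of *Tspan2*. The SD of *Cd9* (21.6) and *Cd81* (18.1) in HDR exceeded the gap between them, so their order is not resolved there. In the mutants *Tspan2* ranked 19 of 31 in HDR, at 5.23 CPM per kb, and 23 of 31 in PE2, at 4.198. At the low end were *Tspan10*, *Tspan1* and *Prph2*, the photoreceptor rim protein, with at most 6 counts per group in either experiment.

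*Tspan2* made up 5.63, 8.64, 10.2, 9.11 and 7.13% of the summed family level per kb in the HDR wild types and 0.937, 1.03, 0.726, 1.221 and 1.30% in *sg/sg* aortae. In PE2 it made up 5.23, 6.62, 4.94 and 4.95% in the wild types and 0.693, 0.723, 0.234 and 0.427% in *peg/peg* aortae. The sum of the other 30 members was 489 ± 63.6 CPM per kb in HDR wild types and 488 ± 56.8 in *sg/sg* (SD, n = 5 each). In PE2 that sum was 794 ± 56.4 in wild types and 851 ± 149 in *peg/peg* (n = 4 each), with the *peg/peg* replicate that stands apart at 1067 and the other 3 between 737 and 829. In both experiments the sum of the others differed between genotypes by less than the SD of the mutants.

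**Figure D3:**
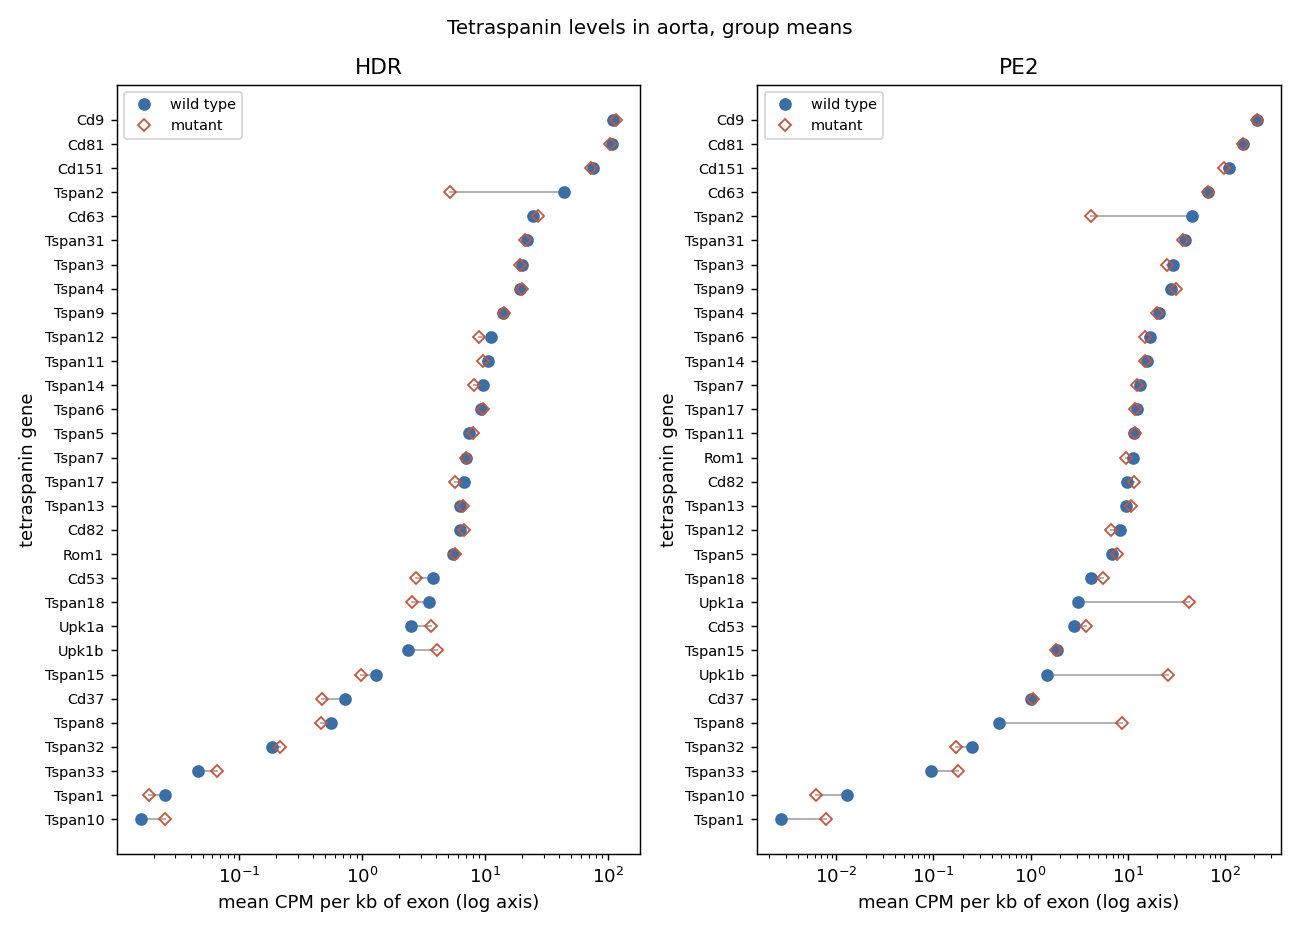
Mean CPM per kb of exon (log axis) of each tetraspanin in wild-type (filled) and mutant (open) aortae, ordered by the wild-type level within each experiment; *Prph2*, with 0 wild-type counts, is left out. *Tspan2* moves from 43.9 to 5.23 in HDR and from 45.9 to 4.198 in PE2, and replicate 3 holds 93.7 to 94.7% of the PE2 mutant level of *Upk1a*, *Upk1b* and *Tspan8*.

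*Cd9* and *Cd81*, the closest relatives of *Tspan2*, which bind immunoglobulin superfamily partners and act in cell fusion and signalling complexes, were level between genotypes within the interval. *Cd9* stood at 156, 227, 247, 275 and 220.5 CPM in HDR wild types and at 222, 219, 179.9, 251 and 332 CPM in *sg/sg*. In PE2 it stood at 364, 509.7, 514 and 355 CPM in wild types and at 479.8, 379, 382 and 508 in *peg/peg*. The groups overlapped in both. The log2 fold change of *Cd9* was 0.10 (95% interval -0.31 to 0.50) in HDR and 0.01 (-0.42 to 0.43) in PE2.

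*Cd81*, known also as a coreceptor on B cells, was at 239.6, 293, 307.3, 337 and 379.8 CPM in HDR wild types and at 274, 279, 261, 318.7 and 380.0 in *sg/sg*. Its PE2 values were 408, 468, 469 and 445 CPM in wild types and 390.4, 401, 516 and 461 in *peg/peg*. The log2 fold change was -0.04 (-0.37 to 0.28) in HDR and -0.02 (-0.32 to 0.28) in PE2, so that a change of *Cd81* beyond about these bounds would have fallen outside the interval.

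*Cd151*, the partner of laminin-binding integrins, and *Cd63*, a marker of late endosomes and exosomes, were the other abundant members. *Cd151* stood at 164, 157, 217, 223 and 281 CPM in HDR wild types and at 176, 178, 176, 203 and 263 in *sg/sg*, with a log2 fold change of -0.07 (-0.46 to 0.33). Its PE2 values were 279, 319.2, 315.1 and 295 CPM in wild types and 280.3, 278, 230.3 and 291 in *peg/peg*, with -0.16 (-0.42 to 0.09) and the lowest value in replicate 3. *Cd63* stood at 79.9, 102, 87.0, 92.7 and 91.7 CPM in HDR wild types and at 107, 110.4, 67.6, 92.5 and 115 in *sg/sg*. In PE2 it was at 243, 259.6, 237 and 242 CPM in wild types and at 251, 227, 257 and 249.9 in *peg/peg*, where the log2 fold change of 0.00 had one of the narrowest intervals of the family (-0.20 to 0.21).

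The 6 TspanC8 members regulate the maturation and place of ADAM10, a protease that cleaves Notch and cadherins. Of them, 4 were tested in HDR and 5 in PE2, and 0 passed the adjusted or unadjusted threshold. *Tspan17* came nearest in HDR, with 11.01, 11.8, 9.48, 11.2 and 11.9 CPM in wild types and 9.33, 9.31, 8.54, 9.72 and 10.6 in *sg/sg*. Those groups overlapped through wild-type library 4, and the log2 fold change was -0.22 ± 0.11 (SE, unadjusted p = 0.0721, edgeR adjusted p = 1.00). With a term for the 4 libraries with Y-linked counts, an alternative chosen after seeing the data, *Tspan17* had an unadjusted p of 0.0452. In PE2 *Tspan17* stood at 17.2, 21.2, 23.9 and 21.0 CPM in wild types and at 16.0, 18.5, 22.4 and 21.2 in *peg/peg*, with a log2 fold change of -0.09 ± 0.14.

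*Tspan5*, known from Notch signalling, stood at 53.7, 55.4, 64.5, 50.4 and 47.9 CPM in HDR wild types and at 61.9, 61.9, 50.8, 52.3 and 69.2 in *sg/sg*. Its PE2 values were 46.6, 51.9, 64.1 and 42.3 CPM in wild types and 55.8, 61.9, 61.9 and 52.4 in *peg/peg*. The log2 fold change was 0.12 ± 0.12 in HDR and 0.18 ± 0.14 in PE2, and the groups overlapped. *Tspan14* had 23.7, 21.0, 18.1, 27.5 and 37.1 CPM in HDR wild types against 20.5, 17.1, 25.3, 27.0 and 17.7 in *sg/sg*. In PE2 *Tspan14* had 54.6, 35.4, 40.05 and 36.6 against 43.3, 51.1, 39.2 and 28.4. Its log2 fold change was -0.24 ± 0.20 and -0.04 ± 0.20.

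*Tspan15*, the member that steers ADAM10 to cadherins, stood at 11.2, 10.02, 7.32, 10.2 and 14.4 CPM in HDR wild types and at 8.62, 6.996, 11.8, 8.32 and 3.94 in *sg/sg* (log2 fold change -0.42 ± 0.26, edgeR unadjusted p = 0.131). In PE2 it stood at 13.5, 17.9, 10.8 and 19.0 CPM against 9.55, 15.01, 20.7 and 14.96 (-0.02 ± 0.26). *Tspan33* passed the filter in PE2 alone, with 0.612, 0.551, 0.508 and 0.270 CPM in wild types and 0.703, 0.433, 2.11 and 0.495 in *peg/peg*, where replicate 3 is the high value. Its log2 fold change of 0.95 ± 0.57 became 0.16 ± 0.40 without that library. *Tspan10* had 3 and 4 counts in the HDR groups and 4 and 2 in PE2, below the filter. *Adam10* itself was at 119, 121, 136, 85.6 and 117 CPM in HDR wild types and 110.3, 120.4, 135, 112 and 101 in *sg/sg*, with a log2 fold change of 0.00 ± 0.13, and in PE2 at 96.4, 70.2, 82.9 and 99.6 against 94.9, 127, 98.1 and 68.6 (0.15 ± 0.19).

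*Cd37*, *Cd53*, *Cd82* and *Tspan32* are known from leukocytes, and 0 of the 4 passed either threshold in either experiment. *Cd37* stood at 1.66, 2.74, 1.85, 2.22 and 4.19 CPM in HDR wild types and at 1.26, 1.35, 1.87, 2.76 and 1.011 in *sg/sg* (log2 fold change -0.62 ± 0.34, edgeR unadjusted p = 0.0925). In PE2 *Cd37* stood at 4.03, 3.98, 1.63 and 4.58 CPM in wild types and at 4.36, 1.86, 5.12 and 3.47 in *peg/peg* (0.06 ± 0.41). *Cd53* had its highest HDR value, 10.9 CPM, in wild-type library 6, as did *Cd37*. The summed level of 8 leukocyte markers, all with counts in every group, was 444 CPM in that library, the highest, and 113 to 265 in the other HDR libraries. In PE2 the highest *Cd53*, 13.5 CPM, was in *peg/peg* replicate 3, where the marker sum was 502 against 98.9 to 354 in the others. The part of leukocyte content in these values was not tested.

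*Tspan32* was low, at 1.78, 1.90, 0.883 and 1.67 CPM in PE2 wild types and 0.776, 1.30, 1.23 and 0.938 in *peg/peg* (log2 fold change -0.55 ± 0.32, edgeR unadjusted p = 0.125). In HDR it ran from 0.529 to 2.11 CPM in wild types and from 0.745 to 2.21 in *sg/sg*, with 0.21 ± 0.44. *Cd82*, described as a metastasis suppressor, had log2 fold changes of 0.11 ± 0.13 and 0.22 ± 0.19.

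The uroplakin members and *Tspan8*, a tetraspanin of gut and other epithelia, had the widest spread of the family. In PE2, *Upk1a* stood at 7.87, 4.36, 3.07 and 2.08 CPM in wild types and at 1.14, 0.483, 229 and 13.7 in *peg/peg*. *Upk1b* stood at 4.61, 4.13, 2.14 and 1.32 CPM in wild types and at 0.703, 2.60, 207 and 9.05 in *peg/peg*. *Tspan8* stood at 1.20, 0.476, 0.110 and 1.42 CPM in wild types and at 1.16, 0.840, 56.5 and 1.17 in *peg/peg*. Replicate 3 alone held 93.7%, 94.4% and 94.7% of the mutant CPM of these 3 genes. For *Tspan8* the other mutants lay inside the range of the wild types. For *Upk1a* and *Upk1b* replicate 4, at 13.7 and 9.05 CPM, lay above every wild type and replicate 1, at 1.14 and 0.703 CPM, below every wild type.

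The log2 fold changes of these genes were 3.81 ± 1.72 for *Upk1a* (unadjusted p = 0.0568), 4.17 ± 1.65 for *Upk1b* (unadjusted p = 0.0354) and 4.22 ± 1.63 for *Tspan8* (unadjusted p = 0.0321), each with an edgeR adjusted p of 0.861. Without replicate 3 they were 0.23 ± 1.01, 0.42 ± 0.78 and 0.40 ± 0.71. DESeq2 gave no p for any of the 3. *Upk2* and *Upk3a*, the other uroplakin subunits, were high in the same library, as given above. That library was the highest of the 8 for 12 of the 28 members tested and the lowest for 7, and the part of its other markers in these values was not tested. The share of all genes at these extremes was not taken, so the counts are not read as a trait of the family.

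In HDR, *Upk1a* stood at 1.71, 14.1, 0.176, 0.739 and 0.972 CPM in wild types and at 7.86, 0.0965, 16.6, 0.841 and 0.479 in *sg/sg*. *Upk1b* stood at 2.26, 20.1, 0, 0.394 and 1.69 CPM in wild types and at 11.03, 0, 30.5, 0.514 and 0.266 in *sg/sg*. The high values lie in wild-type library 3 and *sg/sg* libraries 2 and 4, in both genotypes, and the log2 fold changes were 0.54 ± 1.222 and 0.79 ± 1.44. *Tspan8*, with 99 and 74 counts over the HDR groups, was below the filter there. The difference of *Tspan8* between the experiments was -4.51 ± 1.75 (SE, unadjusted p = 0.0194, edgeR adjusted p = 0.918), the 1 member under an unadjusted 0.05 where 5.13% of genes were. Without *peg/peg* replicate 3, 0 members were under it, where 601 of 18333 genes were. After adjustment 0 of 28 members differed between the experiments, and 0 of 18094 genes (0%).

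**Figure D4:**
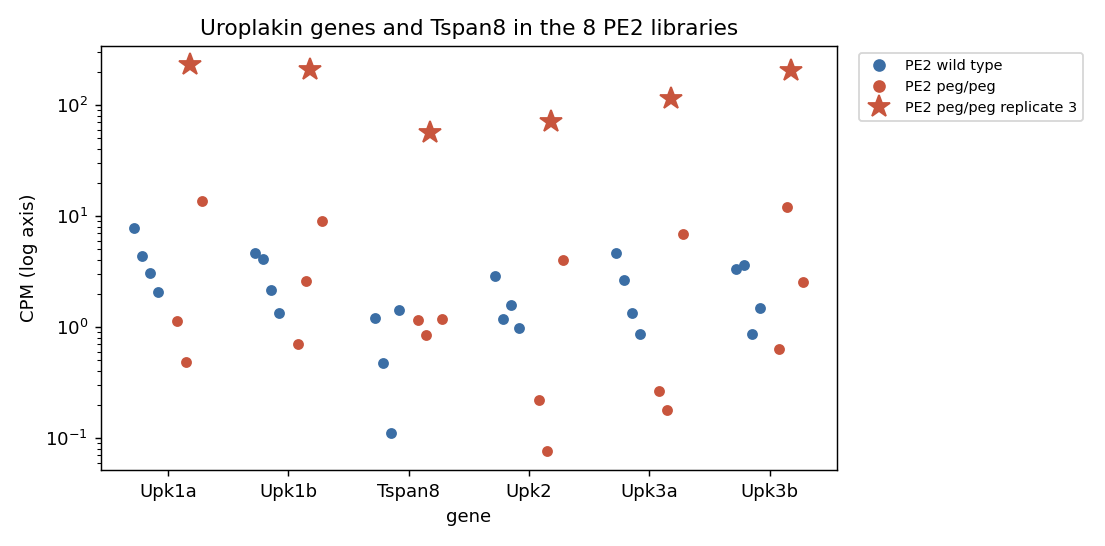
CPM (log axis) of *Upk1a*, *Upk1b*, *Tspan8* and the uroplakin genes *Upk2*, *Upk3a* and *Upk3b* in the 8 PE2 libraries, points for single libraries and a star for *peg/peg* replicate 3. The star lies above all 7 other libraries for each gene, from 56.5 CPM for *Tspan8* to 229 CPM for *Upk1a*. The other mutants lie among the wild types for *Tspan8*, and for each uroplakin gene some lie below and some above all wild types.

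The remaining members include *Tspan3*, *Tspan7* of neurons, *Tspan12*, a coreceptor of norrin signalling, and *Rom1* of photoreceptors. None of those tested passed the adjusted threshold. *Tspan12* had log2 fold changes of -0.33 ± 0.32 (SE) in HDR and -0.32 ± 0.39 in PE2. Those of *Tspan3* were -0.05 and -0.18, of *Tspan6* 0.06 and -0.17, of *Tspan7* 0.00 and -0.12, of *Tspan9* 0.02 and 0.18 and of *Rom1* 0.06 and -0.24. *Tspan18*, a partner of the calcium channel ORAI1 in endothelium, stood at 38.9, 26.1, 14.2, 28.3 and 36.4 CPM in HDR wild types and at 22.5, 22, 31.6, 19.4 and 9.26 in *sg/sg* (log2 fold change -0.46 ± 0.31, edgeR unadjusted p = 0.169). In PE2 *Tspan18* stood at 42.0, 36.0, 21.6 and 38.7 CPM in wild types and at 22.01, 34.9, 91.3 and 34.2 in *peg/peg*, and its log2 fold change moved from 0.40 ± 0.43 to -0.19 ± 0.25 without replicate 3. *Tspan13* likewise moved from 0.18 ± 0.35 to -0.34 ± 0.12 without that library (unadjusted p = 0.0249, edgeR adjusted p = 0.989), where 4.1% of genes were under 0.05. *Tspan31* was among the steadiest members, with 85.4 ± 1.14 CPM in PE2 wild types and 81.0 ± 2.90 in *peg/peg* (SD, n = 4 each) and a log2 fold change of -0.08 (-0.22 to 0.07).

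*Tspan4* and *Tspan11*, picked after their values were seen, varied among the HDR libraries but not by genotype. *Tspan4*, a component of migrasomes, stood at 52.6, 43.8, 65.9, 22.3 and 23.4 CPM in wild types and at 57.9, 58.9, 55.9, 22.2 and 22.7 in *sg/sg*. *Tspan11*, a relative of *Cd151*, stood at 44.4, 39.98, 37.5, 83.3 and 75.1 CPM in wild types and at 33.8, 36.1, 39.8, 70.2 and 74.7 in *sg/sg*. In both genotypes the last 2 values, from libraries 5 and 6 with Y-linked counts, lie apart, low for *Tspan4* and high for *Tspan11*. Some other members also separated these libraries. *Tspan6* stood at 22.1 to 25.5 CPM in them against 12.7 to 20.9 in the rest, and *Tspan9* at 81.4 to 112 against 43.4 to 77.1. The genotype log2 fold changes of *Tspan4* and *Tspan11* were 0.06 ± 0.37 and -0.14 ± 0.30. In PE2, the 1 library with Y-linked counts, a wild type, had 49.9 CPM of *Tspan4*, inside the 35.3 to 57.7 of the others, and 70.7 CPM of *Tspan11*, inside 16.6 to 92.5.

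**Figure D5:**
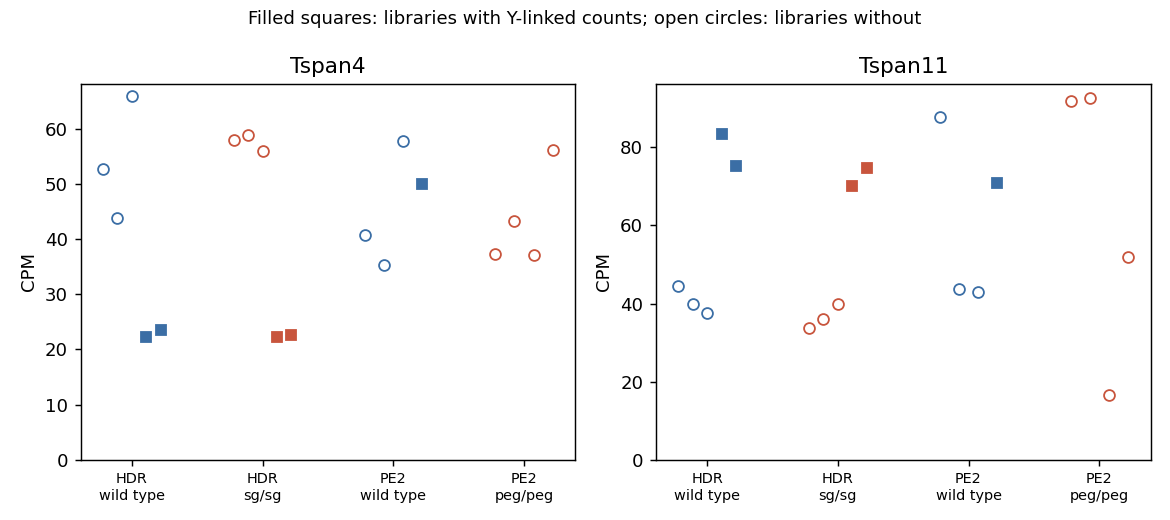
CPM of *Tspan4* and *Tspan11* in each library of the 4 groups, with filled squares for libraries that hold Y-linked counts. In HDR the squares lie at 22.2 to 23.4 CPM for *Tspan4* and 70.2 to 83.3 for *Tspan11*, apart from the circles in both genotypes, and in PE2 the 1 square lies among the circles.

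Known partners of tetraspanins were read as a list of 30 genes: proteases, Notch receptors, integrins, immunoglobulin superfamily proteins and others. In HDR 28 were tested and in PE2 29, and 0 passed the adjusted threshold in either. At an unadjusted p under 0.05 there were 2 lower in HDR (background 1.63% of genes lower) and 2 higher in PE2 (background 3.04% higher). *Ptgfrn*, the immunoglobulin superfamily partner of CD9 and CD81, stood at 104, 125, 93.0, 100.1 and 118 CPM in HDR wild types and at 80.3, 77.3, 72.7, 96.6 and 94.0 in *sg/sg* (log2 fold change -0.36 ± 0.12, unadjusted p = 0.0105, edgeR adjusted p = 1.00). In PE2 *Ptgfrn* stood at 129.8, 112, 117 and 138 CPM in wild types and at 156, 155, 288 and 126 in *peg/peg*, with 0.54 ± 0.25 and 0.22 ± 0.12 without replicate 3. The sign of the *Ptgfrn* estimate was thus opposite in the experiments, though its PE2 interval (-0.03 to 1.12) includes 0.

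*Dpp4*, a membrane peptidase, stood at 7.09, 16.2, 7.23, 7.39 and 13.2 CPM in HDR wild types and at 3.82, 4.73, 6.17, 5.80 and 3.51 in *sg/sg*, groups that did not overlap (log2 fold change -1.09 ± 0.28, unadjusted p = 0.00203, edgeR adjusted p = 1.00). In PE2 it stood at 6.96, 5.59, 2.41 and 7.26 CPM against 3.61, 8.14, 31.9 and 6.54, with 1.18 ± 0.68, and 0.13 ± 0.41 without replicate 3. The PE2 partners under 0.05 were *Upk3b*, which pairs with UPK1B, at 3.34, 3.58, 0.861 and 1.47 CPM against 0.630, 12.0, 203 and 2.55, and *Epcam*, an epithelial adhesion protein, at 0.484, 0.225, 0.331 and 0.0736 against 0.0969, 0.102, 14.8 and 0.730. Their log2 fold changes were 4.56 ± 1.69 and 3.81 ± 1.63, and 1.12 ± 0.88 and 0.14 ± 0.87 without replicate 3.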

How the data were processed

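RNA of single aortae was sequenced by the authors, who trimmed reads with fastp, aligned them with STAR 2.7.0f to GRCm38 with Gencode annotation, counted reads per gene with featureCounts of Subread 1.6.4 and compared genotypes with DESeq2 1.22.1. The deposited values used here are raw read counts per gene, 1 table per experiment. Normalised count tables were not used here. Whether counting used strand is not given in the sources used here, and the kit named in the labels is not that of the methods. All columns were mapped by name, with 0 unused columns of single libraries. The HDR column names carry a genotype and a number but neither the sex nor the number in the sample titles, so HDR libraries were placed by genotype only. Each library comes from a separate animal, and no pair of libraries in a group agreed within sampling noise.

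Genotypes were compared within each experiment by edgeR 4.0.16 (R 4.3.3): TMM scaling, filterByExpr, a quasi-likelihood test and Benjamini-Hochberg adjustment over all genes tested, with calls at an adjusted p under 0.05. The SE of a log2 fold change was taken from its F statistic, and intervals are at 95%. The difference between the experiments was a contrast over all 18 libraries in 4 groups. CPM per kb divides by the length of the union of exons. The code was tested on simulated data. Alternatives were DESeq2 1.42.0, limma-voom 3.58.1, DESeq2 size factors, no filter (a summed count of at least 1), a replicate block and the female libraries alone in PE2, and leaving out each library. A term for the HDR libraries with Y-linked counts, a block on the numbers in the HDR column names and the unadjusted counts without PE2 *peg/peg* replicate 3 were added after the data were seen. Intervals on counts cover counting error only.

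Members, partners and marker lists were chosen with earlier results of these data known. All 31 members were named. Library values were printed for *Tspan2*, the 5 members with the smallest unadjusted p in each experiment, the 5 with the highest CPM per kb, the TspanC8 members, the 3 nearest *Tspan2* in protein, *Adam10*, and partners at an unadjusted p under 0.05. *Tspan4*, *Tspan11*, *Cd53*, *Tspan13*, *Tspan31*, the HDR ranges of *Tspan6* and *Tspan9* and the urothelial and mesothelial lists were chosen after their values were seen. Alleles and guides come from the sequences the study lists for its designs, promoter windows from RefSeq and proteins from Gencode M21 (BLOSUM62, Biopython 1.88). Tables were made with Python 3.11.15, pandas 2.3.3, numpy 2.4.6 and scipy 1.17.1.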

Additional observations from a re-analysis of the deposited data

Results flagged for a closer look

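Within each group of 4 or 5 libraries, the gap between an extreme library and its nearest neighbour was divided by the range of the group (Dixon's ratio) and set against its 95% critical value. Of 108 member groups 12 passed, and chance flags about 1 in 20 groups where values are normal and groups independent. Neither holds for members with few counts or for groups that share a library. Of these, 7 lay in the *peg/peg* group of PE2, each with replicate 3 highest. The ratios were 0.8387 for *Tspan33*, 0.9564 for *Cd53*, 0.9419 for *Upk1a*, 0.9595 for *Upk1b*, 0.994 for *Tspan8*, 0.8472 for *Tspan9* and 0.8418 for *Tspan13*. *Tspan9* stood at 221 CPM in that library against 129 to 143 in the other *peg/peg* libraries, and *Tspan13* at 50.8 CPM against 16.4 to 21.8.

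The other 5 lay in the remaining groups, with those of *Upk1a* and *Upk1b* in the same library. For the reasons above, their number is not read against the 1 in 20. In HDR wild-type library 3, *Upk1a* was highest with 14.1 CPM (ratio 0.8898) and *Upk1b* with 20.1 CPM (0.8874), and the urothelial sum of the same library was 82.3 CPM against at most 6.68 in the other HDR wild types. *Cd82* was lowest in HDR wild-type library 5, at 15.9 CPM against 18.9 to 20.04 (0.7163). *Tspan7* was lowest in *sg/sg* library 6, at 40.3 CPM against 49.6 to 52.9 (0.7317), and highest in PE2 wild-type replicate 3, at 114 CPM against 87.5 to 91.9 (0.8326).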

How the results depend on the processing

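*Tspan2* was called in HDR under all 16 alternatives, with log2 fold changes from -3.24 to -2.95, the range also of leaving out single libraries (edgeR adjusted p 0.000379 to 0.0216). In PE2 it was called under 5 of 14: DESeq2 size factors, DESeq2, limma-voom, no filter, and without *peg/peg* replicate 3. It was lost without any other single library (range over all -3.60 to -3.28, edgeR adjusted p 0.00524 to 0.224), and with the female libraries alone (-3.53, adjusted p = 0.128), with 0 members then called. Leaving out single PE2 libraries gave 0 to 1 members called. By CPM in place of CPM per kb, *Tspan2* made up 12.6% of the family in HDR wild types, 1.69% in *sg/sg*, 8.63% in PE2 wild types and 0.857% in *peg/peg*. The difference of *Tspan2* between experiments ran from 0.21 to 0.56 in 20 alternatives and was called in 0. Of 778 alternative values of the other members, 0 were called and 77 had the opposite sign, and of 854 for the partners 0 and 84. Members at an unadjusted p under 0.05 numbered 1 to 3 in HDR and 1 to 4 in PE2. The background moved too, from 190 of 16685 genes to 2588 of 42968 in HDR. In PE2 it ran from 295 of 16778 genes to 1555 of 16787. The median log2 fold change of all genes was 0.15 with DESeq2 and 0.10 with no filter in HDR.

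In PE2, deviations of same-numbered libraries correlated by -0.046, -0.18, -0.036 and -0.25, so no pairing by number was seen. Groups of 4, with replicate 3 apart, cannot show whether the animals were related or handled together. With a replicate block, *Tspan2* had a log2 fold change of -3.50 (edgeR adjusted p = 0.295) and 0 members were called. The HDR columns carry numbers that are not those of the titles. By these numbers the correlations were 0.61, 0.17, -0.18, 0.47 and 0.31, not all above 0.1. Some differently numbered libraries correlated as highly, such as wild-type 2 with *sg/sg* 3 (0.56) and wild-type 5 with *sg/sg* 6 (0.53), so these values do not decide pairing. A replicate block on the numbers, added after the data were seen, gave *Tspan2* -3.06 (edgeR adjusted p = 0.0361) with 1 member called. Groups of 4 or 5 leave intervals of several-fold for low or variable members such as *Upk1a*, *Upk1b* and *Tspan8*, and members with few counts (*Tspan10*, *Prph2*, *Tspan1*) were below the filter of the main test and were called in 0 of the fits that included them.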

Other observations

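Of 30 partners, 3 had an unadjusted p under 0.05 (edgeR) for the difference between experiments: *Ptgfrn*, *Dpp4* and *Upk3b*. The share of all genes was 5.13%. Their log2 fold changes were below 0 in HDR and above 0 in PE2. The PE2 intervals of *Ptgfrn* (-0.03 to 1.12) and *Dpp4* (-0.39 to 2.75) include 0, as does the HDR interval of *Upk3b* (-4.37 to 0.65). The HDR log2 fold change of *Ptgfrn* was lower than that of PE2 by 0.89 ± 0.26 (SE, unadjusted p = 0.00334), and that of *Dpp4* by 2.26 ± 0.71 (SE, unadjusted p = 0.00521), each with an edgeR adjusted p of 0.870 over all genes. For *Upk3b* the log2 difference was -6.42 ± 2.06 (SE, unadjusted p = 0.0063, edgeR adjusted p = 0.870). Without PE2 *peg/peg* replicate 3, in which all 3 genes were highest, the log2 differences were -0.57 (unadjusted p = 0.00438, edgeR) for *Ptgfrn* and -1.21 (unadjusted p = 0.0229, edgeR) for *Dpp4*. These were then the only partners under an unadjusted 0.05, where 601 of 18333 genes were. Age, strain label, sex mix and depth differ between the experiments and cannot be told apart from the edit. None of the 3 differences passed the adjusted threshold.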
